A study of Mus musculus with 8 samples.

Results

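The 35 genes described here regulate autophagy and lysosomes, and were looked up by symbol among the 21887 protein-coding genes of RefSeq for the mouse genome GRCm38.p6; all 35 were found. They comprise 4 genes that start autophagosome formation, 2 of the nucleation complex, 6 of lipid transfer and membrane supply, 7 of the conjugation machinery, 4 LC3 proteases, 5 LC3 family genes, 2 cargo receptors and 5 lysosome regulators or components. CUT&Tag cuts and tags DNA where an antibody against a chromatin feature is bound, and was here aimed at histone H3 acetylated at lysine 27 (H3K27ac) or lysine 9 (H3K9ac) in crypts of the small intestine from male C57BL/6J mice aged 9 weeks. Per the labels, the mice were fed (Fed) or fasted for 24 h (Fast), and received either no tetracycline or tetracycline for 21 days. No transgene is named, and the crypts were isolated with EDTA and dissociated with trypsin. The title of the series names a link between fasting, the microbiome and chromatin as its question.

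Each mark therefore had 4 groups, and each group held 1 sample with 2 peak lists, called list 1 and list 2 after their deposited names. The labels do not tie the paired lists to separate mice, so the p-values measure only the spread between lists, which may be technical. The 16 lists held 17249 to 99050 peaks, and their depth in reads is unknown. Of 10 epithelial marker genes, all had a peak at a gene end in every H3K27ac list and 8 to 10 in the H3K9ac lists. Of 8 stroma and muscle markers, 0 to 1 had one in an H3K27ac list and 0 to 4 in an H3K9ac list. Of 8 markers of other tissues, 0 to 1 had one in an H3K27ac list and 0 to 2 in an H3K9ac list. A peak call says that a mark was found above the caller's cutoff; it is not a level of acetylation or of RNA, and a bulk list cannot tell fewer marked cells from less mark per cell.

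Macroautophagy encloses cytoplasm in a double membrane and delivers it to lysosomes. The ULK1 kinase complex starts the process, a lipid kinase complex containing Beclin 1 and ATG14 marks the site, ATG9 vesicles and ATG2 supply lipid, and ubiquitin-like conjugation attaches LC3 and GABARAP proteins to the growing membrane. Nutrient shortage induces autophagy in many tissues, and in the intestinal crypt it is known for its part in Paneth cell granules and stem cell maintenance. The transcription factors TFEB and TFE3 bind an E-box with the core CACGTG, which lies within the longer element of many lysosomal gene promoters.

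Promoter sequences show how these genes differ before any peak is considered. RefSeq start sites were listed for 30 of the 35 members, giving 35 windows of 250 bases before to 50 bases after a start, because 4 members have several listed starts. The E-box core CACGTG, which reads the same on both strands, occurred in 7 of the 35 windows, those of Atg3, Atg5, Atg7, Atg14, Bnip3, Ctsd and Lamp1. It occurred in 7.84% of all 21263 protein-coding windows, and in 11.1% of the 12067 windows with at least 10 CpG. The longer TCACGTG, searched on both strands and always overlapping the core, was found in the windows of 5 members (4.39% of all windows). The forkhead motif TGTTTAC, searched on both strands, was in none of the members' windows (3.01% of all windows). A match is a description of the letters in the window only.

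3 promoters with the core are printed because their genes carry the results below, from 250 bases before to 20 bases after the start (base 251 is the start), 5′ to 3′ on the gene's strand, with the core and an adjoining T or A of TCACGTG or its reverse complement in capitals. Lamp1 (GRCm38.p6 chr8:13158911-13159180, plus strand) encodes a major glycoprotein of the lysosomal membrane and held 4 copies of the core, a number reached in 5 of all 21263 windows. Ctsd (chr7:142387808-142388077, minus strand) encodes the lysosomal protease cathepsin D and held 2 copies. Bnip3 (chr7:138909487-138909756, minus strand) encodes a receptor for mitophagy, the removal of mitochondria, and held 1 copy without the adjoining T.
Lamp1: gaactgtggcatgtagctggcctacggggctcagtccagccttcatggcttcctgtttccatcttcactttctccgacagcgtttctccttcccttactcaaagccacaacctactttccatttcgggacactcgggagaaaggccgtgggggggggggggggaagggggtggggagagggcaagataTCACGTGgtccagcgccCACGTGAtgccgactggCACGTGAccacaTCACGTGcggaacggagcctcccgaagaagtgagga
Ctsd: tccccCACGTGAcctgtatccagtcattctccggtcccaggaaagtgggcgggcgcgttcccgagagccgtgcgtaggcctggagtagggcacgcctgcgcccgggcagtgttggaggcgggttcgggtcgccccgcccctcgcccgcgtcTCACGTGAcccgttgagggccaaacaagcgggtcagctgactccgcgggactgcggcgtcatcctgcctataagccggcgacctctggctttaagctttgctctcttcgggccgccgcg
Bnip3: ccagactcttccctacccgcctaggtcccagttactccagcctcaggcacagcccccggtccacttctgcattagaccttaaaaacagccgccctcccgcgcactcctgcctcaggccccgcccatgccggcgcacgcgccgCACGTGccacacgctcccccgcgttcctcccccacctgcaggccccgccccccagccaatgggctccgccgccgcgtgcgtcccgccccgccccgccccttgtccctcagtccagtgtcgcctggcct

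The 2 starts of Atg4a, an LC3 protease gene on the X chromosome, are printed for contrast, since they differ in CpG content and in marking, with CG in capitals. The first start (chrX:140953595-140953864, plus strand) is the gene's low end; its printed stretch held 3 CpG and no list of either mark had a peak within 1 kb of it. The second (chrX:140956657-140956926, plus strand) lies 3062 bp inside the gene and held 10 CpG; a peak lay within 1 kb of it in 3 of 8 H3K27ac and 5 of 8 H3K9ac lists.
Atg4a, first start: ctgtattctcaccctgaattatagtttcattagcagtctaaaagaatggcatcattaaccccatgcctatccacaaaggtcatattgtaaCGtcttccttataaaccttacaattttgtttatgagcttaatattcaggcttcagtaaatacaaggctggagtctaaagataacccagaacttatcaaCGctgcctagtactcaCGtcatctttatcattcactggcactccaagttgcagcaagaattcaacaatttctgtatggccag
Atg4a, second start: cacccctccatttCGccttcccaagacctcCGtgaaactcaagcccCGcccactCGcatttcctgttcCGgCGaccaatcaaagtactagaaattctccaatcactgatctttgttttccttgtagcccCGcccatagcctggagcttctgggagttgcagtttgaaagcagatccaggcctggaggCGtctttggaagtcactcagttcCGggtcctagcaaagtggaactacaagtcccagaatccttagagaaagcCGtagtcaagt

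The members' starts were also rich in CpG. The 35 member windows held between 2 and 55 CpG with a median of 20, against a median of 13 over all windows. At least 10 CpG were present in 28 of 35 member windows (80.0%) and in 56.8% of all windows. Among those 28, 21 had an H3K27ac peak within 1 kb in all 8 lists and 14 an H3K9ac peak, against 51.4% and 32.5% of all windows of that class. The 7 windows with fewer than 10 CpG belonged to Atg4a, Atg4c, Atg7, Atg9b, Gabarap, Tfeb and Tfe3; 2 of them were marked in all 8 H3K27ac lists and 1 in all 8 H3K9ac lists. The share over all windows of that class was 10.8% and 4.16%.

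In each list most of these genes were marked at a gene end, in both feeding states and with or without tetracycline. A gene counted as marked in a list if at least 1 base of a peak fell in the 1 kb on either side of one of its ends. H3K27ac marked 28 to 33 of the 35 members in a list (80.0% to 94.3%), while 42.9% to 50.7% of all protein-coding genes were marked. H3K9ac marked 25 to 31 members (71.4% to 88.6%), against 41.1% to 53.2% of all genes. In all 8 H3K27ac lists, 25 members were marked (71.4%; 33.6% of all genes), and in all 8 H3K9ac lists 17 members (48.6%; 21.1% of all genes). A set of 13 members were marked in all 16 lists (37.1%; 17.6% of all genes), and Atg4a and Atg4c in none (22.4% of all genes).

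**Figure D1:**
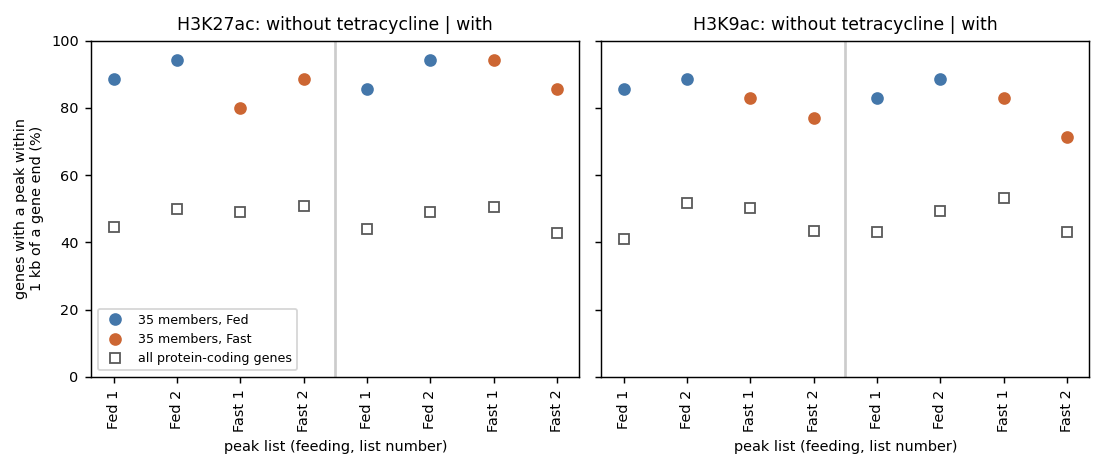
Share of genes with a peak within 1 kb of a gene end in each of the 8 H3K27ac (left) and 8 H3K9ac (right) lists; filled circles are the 35 members (Fed blue, Fast orange) and open squares the 21887 protein-coding genes. The members' share lies between 71.4% and 94.3% and the all-gene share between 41.1% and 53.2%.

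The amount of sequence covered was close to that of other constantly marked genes. Over the members, the median of the bases covered within 1 kb of both ends (gene-end cover) was 1358.5 bp for H3K27ac and 1262.5 bp for H3K9ac. Members marked in all 8 lists had a median of 1484 bp for H3K27ac, against 1470 bp for all genes marked in all 8; for H3K9ac the medians were 1544 and 1334.5 bp. The largest values belonged to genes marked at both ends. Atg9a, which encodes a lipid scramblase of the vesicles that feed the autophagosome, had 1666 to 3372 bp of H3K27ac and 1396 to 3490 bp of H3K9ac.

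**Figure D2:**
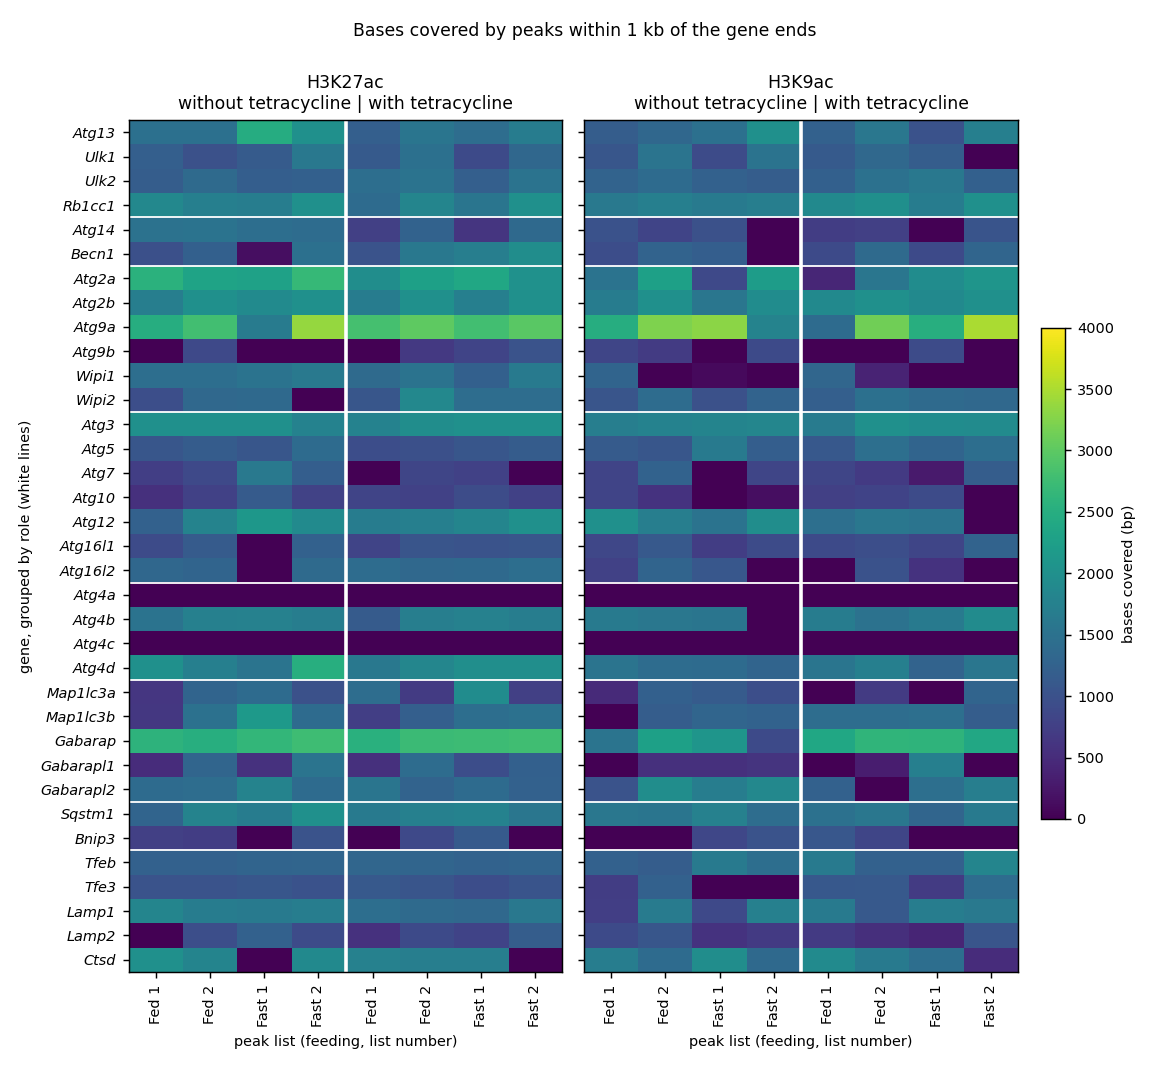
Bases covered by peaks within 1 kb of the gene ends (colour, bp) for each member (rows, grouped by role) in each list (columns; lists 1 and 2 of Fed and Fast, without tetracycline left and with tetracycline right of the white bar). Atg4a and Atg4c are at 0 in all 16 lists, Bnip3 and Atg9b alternate between 0 and covered lists, and Atg9a and Gabarap are the widest.

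The initiation genes were marked almost throughout. Rb1cc1, Ulk2 and Atg13 were marked in all 16 lists, with gene-end cover from 1392 to 2001 bp, 1187 to 1529 bp and 1205 to 2471 bp for H3K27ac. Ulk1 (chr5:110784489-110810120) encodes the kinase that starts autophagy. Its H3K27ac cover was 1207 and 996 bp in Fed, 1142 and 1609 bp in Fast, 1125 and 1484 bp in Fed with tetracycline, and 896 and 1336 bp in Fast with tetracycline, where each pair gives lists 1 and 2. The Fed and Fast values of Ulk1 overlap in both tetracycline states. Here and below, the share of all genes whose cover or peak number separates by feeding within a tetracycline state was not counted. Its H3K9ac cover was 1067 and 1532 bp in Fed, 907 and 1517 bp in Fast, 1125 and 1349 bp in Fed with tetracycline, and 1187 and 0 bp in Fast with tetracycline. The 0 fell in the H3K9ac list with the largest missing share of the genes marked in the other 7. It lacked 733 of 5359 (13.7%), among them Ulk1 and Atg12.

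The nucleation genes encode subunits of the lipid kinase complex. Becn1 (chr11:101288258-101302286) had H3K27ac cover of 976 and 1222 bp in Fed, 151 and 1476 bp in Fast, 1023 and 1600 bp in Fed with tetracycline, and 1716 and 1957 bp in Fast with tetracycline. A single Fast list was thus far below all others; the Fed and Fast values overlap without tetracycline, and with it both Fast lists were above both Fed lists. H3K9ac covered 948 and 1267 bp of Becn1 in Fed, 1191 and 0 bp in Fast, 902 and 1388 bp in Fed with tetracycline, and 903 and 1310 bp in Fast with tetracycline. Atg14 (chr14:47540893-47568434) was marked in 8 H3K27ac lists and 6 H3K9ac lists. Its H3K9ac cover was 1005 and 820 bp in Fed, 988 and 0 bp in Fast, 729 and 751 bp in Fed with tetracycline, and 0 and 1038 bp in Fast with tetracycline. Both lists without H3K9ac at Atg14 were Fast lists, while the other 2 Fast lists had values as high as the Fed lists.

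Among the genes of lipid transfer and membrane supply, Atg2a, Atg2b and Atg9a were marked in all 16 lists and Wipi2 in 15. Wipi1 (chr11:109573521-109611389), which encodes a binder of the lipid that the nucleation complex makes, was marked by H3K27ac in all 8 lists with 1234 to 1647 bp. H3K9ac marked it in only 4 lists, with 1287 and 0 bp in Fed, 109 and 0 bp in Fast, 1318 and 395 bp in Fed with tetracycline, and 0 and 0 bp in Fast with tetracycline. Of the 4 H3K9ac peaks, 2 lay at the start and 2 at the far end, where an end of Arsg lies 191 bp away. Atg9b (chr5:24384181-24392143), the second ATG9 gene, was marked in 4 of 8 lists of each mark.

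At Atg9b the feeding states separated only for H3K27ac with tetracycline, and overlapped otherwise. Its H3K27ac cover was 0 and 888 bp in Fed, 0 and 0 bp in Fast, 0 and 659 bp in Fed with tetracycline, and 815 and 1018 bp in Fast with tetracycline. Both Fast lists were above both Fed lists with tetracycline, while without it the only marked list was a Fed list. H3K9ac covered 835 and 694 bp in Fed, 0 and 900 bp in Fast, 0 and 0 bp in Fed with tetracycline, and 914 and 0 bp in Fast with tetracycline. The peaks lay mainly at its far end, in 4 lists of each mark, where an end of Nos3 lies 293 bp away; its own start, with 2 CpG in its window, had a peak in 2 H3K27ac lists and in no H3K9ac list.

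The conjugation genes encode the enzymes and substrates that join ATG12 to ATG5 and LC3 to lipid. Atg3 and Atg5 were marked in all 16 lists, Atg12 and Atg16l1 in 15, Atg10 in 14, Atg7 in 13 and Atg16l2 in 12. Atg7 (chr6:114643127-114860604), the activating enzyme, had H3K27ac cover of 742 and 878 bp in Fed, 1617 and 1192 bp in Fast, 0 and 839 bp in Fed with tetracycline, and 781 and 0 bp in Fast with tetracycline. Without tetracycline both Fast lists were above both Fed lists, while with tetracycline the values overlap. Atg10 (chr13:90935348-91224725), the enzyme that hands ATG12 to ATG5, had H3K9ac cover of 822 and 580 bp in Fed, 0 and 154 bp in Fast, 761 and 799 bp in Fed with tetracycline, and 918 and 0 bp in Fast with tetracycline. All 4 Fed lists marked Atg10, but the Fast list with 918 bp was the highest of the 8.

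Atg16l2 (chr7:101286325-101302267), a relative of the Atg16l1 scaffold gene, had H3K9ac cover of 775 and 1282 bp in Fed, 1084 and 0 bp in Fast, 0 and 1002 bp in Fed with tetracycline, and 589 and 0 bp in Fast with tetracycline. Its Fed and Fast values overlap. H3K27ac was missing from both Atg16l1 and Atg16l2 in a single list, list 1 of Fast without tetracycline, where 271 of 7633 genes marked in the other 7 lists were missing (3.55%).

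The LC3 proteases split into a marked and an unmarked pair by the gene-end rule. Atg4b was marked in 15 lists and Atg4d in 16, with H3K27ac cover of 1150 to 1764 bp and 1545 to 2507 bp. Atg4a and Atg4c had no peak within 1 kb of either end in any list. RefSeq lists the second start of Atg4a and both starts of Atg4c inside the gene span. The 2 starts of Atg4c lie 4775 and 4988 bp inside, and a peak lay within 1 kb of each in 7 H3K27ac and 8 H3K9ac lists. Atg4c therefore carried both marks at its listed starts, and its 0 is set by the rule on gene ends. Atg7 gave the opposite case: its only listed start lies 27969 bp inside the gene, had a window with 4 CpG, and had no peak within 1 kb in any list, whereas the low gene end was marked in 6 H3K27ac and 7 H3K9ac lists.

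All 5 LC3 family genes, which encode the ubiquitin-like proteins of the autophagosome membrane, were marked in every H3K27ac list, and Gabarap alone also in every H3K9ac list. Map1lc3b (chr8:121590438-121598760) encodes LC3B, the usual marker protein of autophagosomes. Its H3K27ac cover was 655 and 1489 bp in Fed, 2158 and 1402 bp in Fast, 744 and 1209 bp in Fed with tetracycline, and 1438 and 1489 bp in Fast with tetracycline. The 2158 bp include a peak at the far end, which had H3K27ac in that list only and lies 63 bp from an end of Zcchc14. With this peak counted, the means were 1024 bp in the Fed and 1622 bp in the Fast lists. The values overlap without tetracycline, while with it both Fast lists were above both Fed lists. In limma, a linear model fitted over all genes with the spread shared between them, the fasting difference was 0.61 (SE 0.27) in log2(bp + 200), with an adjusted p of 0.764. H3K9ac covered 0 and 1175 bp in Fed, 1303 and 1250 bp in Fast, 1423 and 1425 bp in Fed with tetracycline, and 1468 and 1175 bp in Fast with tetracycline.

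Map1lc3a (chr2:155276364-155278073), a second LC3 gene, had H3K9ac cover of 477 and 1230 bp in Fed, 1150 and 957 bp in Fast, 0 and 690 bp in Fed with tetracycline, and 0 and 1290 bp in Fast with tetracycline. The 2 lists at 0 were the lists numbered 1 of the tetracycline groups. Gabarapl1 (chr6:129533192-129542331), of the GABARAP branch, had 0 and 549 bp in Fed, 549 and 609 bp in Fast, 0 and 322 bp in Fed with tetracycline, and 1729 and 0 bp in Fast with tetracycline. Its Fast lists held both the highest value and a 0, so the groups overlap.

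The cargo receptors differed from each other. Sqstm1 (chr11:50200152-50210820), which encodes p62, a receptor that carries ubiquitinated cargo, was marked in all 16 lists. H3K27ac covered 1293 and 1790 bp in Fed, 1674 and 2001 bp in Fast, 1626 and 1746 bp in Fed with tetracycline, and 1774 and 1568 bp in Fast with tetracycline. H3K9ac covered 1584 and 1561 bp in Fed, 1765 and 1425 bp in Fast, 1499 and 1582 bp in Fed with tetracycline, and 1303 and 1649 bp in Fast with tetracycline. Sqstm1 was thus steady in both marks, with overlapping groups.

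Bnip3 (chr7:138890836-138909506) was marked in 5 H3K27ac and 4 H3K9ac lists. Its H3K27ac cover was 754 and 731 bp in Fed, 0 and 1023 bp in Fast, 0 and 886 bp in Fed with tetracycline, and 1137 and 0 bp in Fast with tetracycline, with no order by group. Its H3K9ac cover was 0 and 0 bp in Fed, 845 and 1026 bp in Fast, 1086 and 835 bp in Fed with tetracycline, and 0 and 0 bp in Fast with tetracycline. Both Fast lists and no Fed list carried H3K9ac at Bnip3 without tetracycline, and both Fed lists and no Fast list with tetracycline. Only 13 of the 21887 genes (0.0594%) showed such a crossing for H3K9ac in either sense, and Bnip3 was the only member; 5 genes (0.0228%) and no member showed it for H3K27ac. The limma interaction for Bnip3, the fasting difference with tetracycline minus that without, was -5.03 (SE 0.98) in log2(bp + 200) with an unadjusted p of 0.00166, and did not pass adjustment over all genes (adjusted p 0.884). When only the upper scores of each list were kept, Fast list 2 without tetracycline lost its peak at Bnip3, and with equal numbers of top peaks both Fast lists without tetracycline did.

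The lysosome genes were marked in nearly every list. Tfeb (chr17:47737037-47792416), which encodes the main transcription factor of lysosomal genes, had H3K27ac cover of 1245 and 1244 bp in Fed, 1288 and 1309 bp in Fast, 1319 and 1311 bp in Fed with tetracycline, and 1257 and 1294 bp in Fast with tetracycline. This was the narrowest range of any member marked by H3K27ac in 8 lists, but its peak ran past the 1 kb window downstream, which caps the cover. The peak itself was 1541 to 3402 bp wide. In cover, the Fast lists were above the Fed lists without tetracycline and below them with it. The far end was marked in 2 of the 8 lists. Upstream of the first listed start the peak reached 244 and 243 bp in Fed and 287 and 238 bp in Fast. With tetracycline it reached 318 and 244 bp in Fed and 256 and 293 bp in Fast, so these values overlap in both states. H3K9ac covered 1239 and 1182 bp of Tfeb in Fed, 1636 and 1439 bp in Fast, 1636 and 1245 bp in Fed with tetracycline, and 1245 and 1816 bp in Fast with tetracycline. The far end of Tfeb had H3K9ac in 4 of these 8 lists. Tfe3 (chrX:7762530-7775202), which encodes a related factor, had 948 to 1122 bp of H3K27ac in the 8 lists. Its H3K9ac cover was 730 and 1239 bp in Fed, 0 and 0 bp in Fast, 1106 and 1121 bp in Fed with tetracycline, and 697 and 1407 bp in Fast with tetracycline. Both lists without H3K9ac at the ends of Tfe3 were those of Fast without tetracycline; within 2.5 kb of an end, list 2 of these had a peak.

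Lamp1 (chr8:13159161-13175338) had H3K27ac cover of 1819 and 1679 bp in Fed, 1634 and 1693 bp in Fast, 1446 and 1381 bp in Fed with tetracycline, and 1359 and 1594 bp in Fast with tetracycline. All 4 lists without tetracycline were above all 4 with it. H3K9ac covered 740 and 1670 bp of Lamp1 in Fed, 887 and 1737 bp in Fast, 1640 and 1118 bp in Fed with tetracycline, and 1692 and 1615 bp in Fast with tetracycline, and did not separate the groups. Ctsd (chr7:142375910-142387827) had H3K27ac cover of 2001 and 1804 bp in Fed, 0 and 1899 bp in Fast, 1763 and 1718 bp in Fed with tetracycline, and 1711 and 0 bp in Fast with tetracycline. The 2 zeros were in Fast lists, while the other Fast lists matched the Fed lists. The lists with a zero lacked 3.55% (list 1 without tetracycline) and 7.44% (list 2 with it) of the genes marked in the other 7. The share of 7.44% was the largest of any H3K27ac list. Both also lacked H3K27ac at Bnip3, as did list 1 of Fed with tetracycline, where Ctsd was marked. H3K9ac covered 1696 and 1392 bp of Ctsd in Fed, 1965 and 1366 bp in Fast, 1907 and 1642 bp in Fed with tetracycline, and 1446 and 501 bp in Fast with tetracycline. Lamp2, which encodes the other major lysosomal membrane glycoprotein, was marked in 7 H3K27ac and 8 H3K9ac lists.

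**Figure D3:**
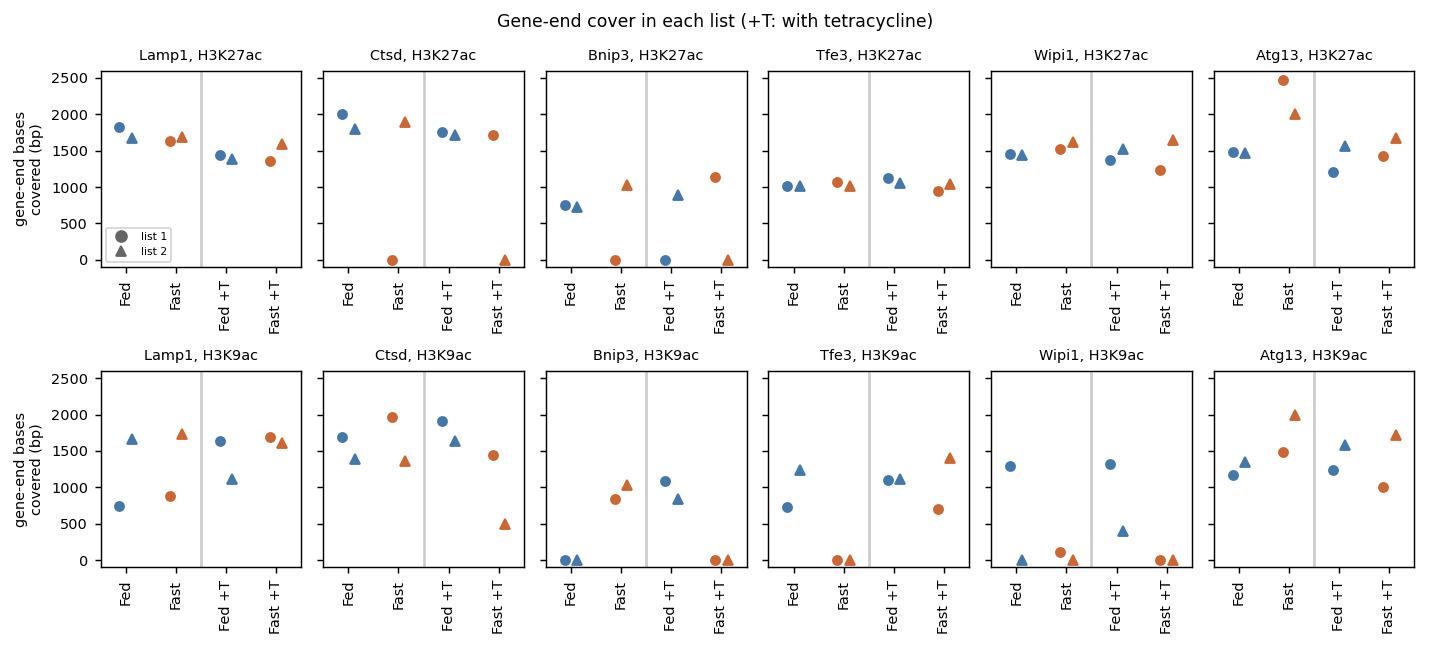
Gene-end cover (bp) of Lamp1, Ctsd, Bnip3, Tfe3, Wipi1 and Atg13 in each list, H3K27ac above and H3K9ac below; circles are lists 1, triangles lists 2, blue Fed and orange Fast, and +T marks tetracycline. H3K9ac at Bnip3 is present in Fast (845 and 1026 bp) and in Fed with tetracycline (1086 and 835 bp) and at 0 in the other 4 lists.

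The peaks lay at the start of the gene. Of the 30 members with a listed start, the end nearer the start had a peak in more H3K27ac lists than the far end in 25, in equal numbers in 4 and in fewer in 1, Atg9b; for H3K9ac the numbers were 24, 3 and 3. The far end was never marked in 19 members for H3K27ac and in 18 for H3K9ac. In each list, 23 to 27 members had an H3K27ac peak over a start and 19 to 25 an H3K9ac peak. These peaks reached a median of 564.5 to 717 bp upstream and 594.5 to 943.5 bp downstream for H3K27ac, and 424 to 637.5 bp upstream and 598.5 to 1083 bp downstream for H3K9ac. Over all starts covered by a peak, the list medians were 549 to 655 bp upstream and 578.5 to 814 bp downstream for H3K27ac, and 447.5 to 535 bp upstream and 551.5 to 827 bp downstream for H3K9ac. The members' H3K9ac downstream median was above that of all genes in all 8 lists, from 598.5 against 596 bp to 1083 against 767 bp; this difference was not tested. Tfeb was the most one-sided, with a median of 250 bp upstream and 1564.5 bp downstream for H3K27ac and 241 and 1473.5 bp for H3K9ac. These distances are from its first listed start, and a second listed start lies 894 bp downstream, within that reach. Gabarapl2 lay the other way, with 1282.5 bp upstream and 398 bp downstream for H3K27ac.

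**Figure D4:**
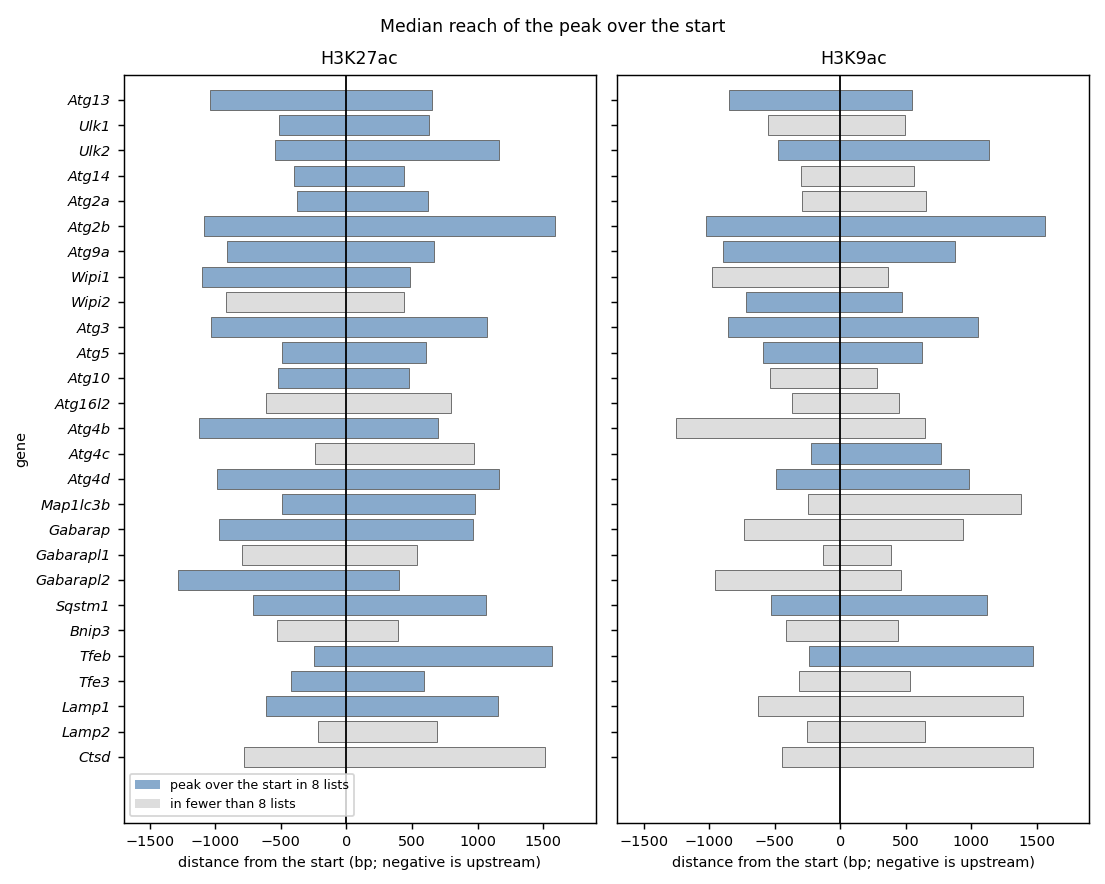
Median reach of the peak over a member's start (bars; distance from the start in bp, upstream negative), over the lists with such a peak, for H3K27ac (left) and H3K9ac (right); blue bars had the peak in 8 lists and grey bars in fewer. Tfeb reaches 1564.5 bp downstream and 250 bp upstream for H3K27ac, and Gabarapl2 the reverse, with 1282.5 bp upstream.

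Neighbouring genes share some of these peaks. In 14 of the 35 members the end of another protein-coding gene lay within 1 kb of an end, against 24.8% of all genes. Examples at the start are Atg2b with Gskip at 55 bp, Atg4b with Thap4 at 67 bp, Atg3 with Slc35a5 at 156 bp and Atg13 with Harbi1 at 255 bp; a peak between such starts cannot be assigned to either gene. Of the 14 members with such a neighbour, 12 had H3K27ac in all 8 lists, and of the 21 without, 13. Over all genes the shares were 55.5% with and 26.4% without a neighbour. For H3K9ac, 6 of the 14 and 11 of the 21 were marked in all 8 lists, against 37.9% and 15.6% of all genes.

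The number of marked members, for which no test was run, was lower in Fast than in Fed lists on average. The mean number of members marked by H3K27ac was 31.75 in the 4 Fed and 30.5 in the 4 Fast lists, a difference of -1.25 with a within-group SD between lists, pooled over the 4 groups, of 1.97. For H3K9ac the means were 30.25 and 27.5, a difference of -2.75 that is larger than the pooled SD of 1.77, while the mean share of all genes was 46.3% in Fed and 47.5% in Fast lists. The H3K9ac difference was -0.5 with lists 1 alone and -5 with lists 2 alone, so most of it lay in lists 2. With peaks at or above each list's median score the H3K9ac difference was -4.75, and with equal numbers of top peaks -8.75. The H3K27ac difference turned to 0.25 with the former. Equal numbers cut every H3K9ac list to 17249 peaks, while the longest, a Fast list, held 99050. The share of all genes under these settings was not worked out, so they do not show a change particular to the members. Under both of these settings Atg10 had H3K9ac in all 4 Fed lists and no Fast list. The number of all genes meeting such a rule also rose under both, as given below. No member was marked in all 4 lists of one feeding state and none of the other, for either mark; the share of all genes was 0.0959% for Fast over Fed and 0.0137% for Fed over Fast in H3K27ac, and 0.0777% and 0.0411% in H3K9ac. The genes missing from a single list were 0.136% to 7.44% of those marked in the other 7 for H3K27ac and 1.22% to 13.7% for H3K9ac.

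In gene-end cover, no member and no gene passed an adjusted p of 0.05 for fasting in limma (0.0% of 11840 genes tested for H3K27ac and of 13204 for H3K9ac; 33 members were tested for each mark). At an unadjusted p below 0.05, 828 genes (6.99%) and 1 member passed for H3K27ac, and 857 genes (6.49%) and 1 member for H3K9ac. The member for H3K27ac was Atg13 (chr2:91674612-91710597), which encodes the adaptor of the ULK1 complex. Its cover was 1477 and 1471 bp in Fed, 2471 and 2001 bp in Fast, 1205 and 1561 bp in Fed with tetracycline, and 1433 and 1673 bp in Fast with tetracycline. The 2471 bp include a peak at the far end, which had H3K27ac in that list only. The part of this peak in the differences of Atg13 was not tested. The fasting difference was 0.34 (SE 0.11) in log2(bp + 200), with a limma p of 0.0219 and an adjusted p of 0.581. The Fast lists were higher without tetracycline and overlapped the Fed lists with it. For H3K9ac the member was Tfe3, at -1.33 (SE 0.45), with a limma p of 0.0222 and an adjusted p of 0.698. Its Fast lists were both at 0 without tetracycline, and with it the Fed and Fast values overlap. The same zeros enter the tetracycline and interaction results of Tfe3 given below.

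Atg12, which encodes the ubiquitin-like partner of ATG5, was the member whose 4 Fast lists all lay above the 4 Fed lists in H3K27ac cover, at 1237 and 1787 bp in Fed, 2116 and 1910 bp in Fast, 1687 and 1722 bp in Fed with tetracycline, and 1814 and 2001 bp in Fast with tetracycline. Such a separation was seen in 3.79% of the genes tested, and its peak is shared with Ap3s1, whose end lies 30 bp away. No member had all Fed lists above all Fast lists in H3K27ac (0.541% of genes), and for H3K9ac no member separated in either direction (1.12% and 1.7% of genes).

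Within a tetracycline state, H3K9ac was present in both lists of one feeding state and neither of the other at 3 members. Without tetracycline these were Bnip3 for Fast over Fed (1.23% of all genes) and Tfe3 for Fed over Fast (1.48%). With tetracycline they were Wipi1 and Bnip3 for Fed over Fast (1.23%), the Wipi1 peak of Fed list 1 lying at its start and that of list 2 at its far end, and none for Fast over Fed (1.93%). The Wipi1 call ended when peaks at or above the median score, equal numbers of top peaks, peaks at least 500 bp wide or starts only were used, since Fed list 2 with tetracycline then had no peak. The Tfe3 call ended with a window of 2.5 kb and at starts only. For H3K27ac no member was called in any of the 4 cases (for Fast over Fed 1.29% of genes without and 0.768% with tetracycline, and for Fed over Fast 0.503% and 0.457%).

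On average more peaks lay in and around these genes in Fast lists, as they did around genes in general, but lists 1 and lists 2 differed in direction. The number of peaks in the gene body plus 50 kb on either side had a median over the members of 5 to 8 in the H3K27ac lists and 3 to 10 in the H3K9ac lists. The median fasting difference in log2(peaks + 1), where adding 1 understates the change of genes with few peaks, over the 35 members was 0.23 for H3K27ac and 0.45 for H3K9ac; over all genes tested it was 0.24 and 0.57. It was above 0 in 29 of 35 members for H3K27ac (82.9%; 80.7% of genes) and in 31 of 35 for H3K9ac (88.6%; 92.5% of genes). Total peaks per list moved with it, from a mean of 41135 in Fed to 54353.5 in Fast lists for H3K27ac. With lists 1 alone the members' median was 0.42 for H3K27ac and 1.29 for H3K9ac, and with lists 2 alone -0.06 and -0.35. With equal numbers of top peaks in every list, it was -0.06 for H3K27ac and -0.27 for H3K9ac. Immune markers moved with it too: 2 to 5 of 10 were marked by H3K27ac in Fed and 4 to 6 in Fast lists, Ptprc in none of the Fed and all 4 Fast lists, and Adgre1 and Csf1r in no H3K27ac list. For H3K9ac, 0 to 3 immune markers were marked in Fed and 1 to 4 in Fast lists, Ptprc and Adgre1 in none, and 0 to 1 of 8 stroma and muscle markers in Fed and 0 to 4 in Fast lists. The part of these markers in the result was not tested.

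No member had all 4 lists of one feeding state above all 4 of the other in peak number, where the share of genes was 2.18% for Fast over Fed and 0.081% for Fed over Fast in H3K27ac, and 3.16% and 0.0% in H3K9ac. No gene passed adjustment for fasting in peak number (0.0% of 18510 genes for H3K27ac and of 21106 for H3K9ac). With lists 1 alone, 466 genes passed for H3K27ac and with lists 2 alone 0, and no member was among them. At an unadjusted p below 0.05, 4 of 35 members passed for H3K27ac (1909 genes, 10.3%) and 2 of 35 for H3K9ac (2016 genes, 9.55%), near the share of all genes. The H3K27ac members were Atg7, Atg12, Atg16l1 and Becn1. Around Atg7 there were 4 and 4 peaks in Fed, 13 and 18 in Fast, 3 and 6 in Fed with tetracycline, and 12 and 5 in Fast with tetracycline. The difference was 1.22 (SE 0.31), with p 0.00608 and an adjusted p of 0.398, and the groups overlap because 1 Fast list with tetracycline fell below a Fed list.

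Around Atg12 there were 1 and 5 H3K27ac peaks in Fed, 9 and 10 in Fast, 3 and 2 in Fed with tetracycline, and 6 and 4 in Fast with tetracycline, a difference of 1.19 (SE 0.37; adjusted p 0.453). Around Atg16l1 there were 3 and 3 peaks in Fed, 6 and 5 in Fast, 2 and 2 in Fed with tetracycline, and 3 and 3 in Fast with tetracycline, a difference of 0.56 (SE 0.19; adjusted p 0.453). The Fast lists were above the Fed lists within each tetracycline state. Around Becn1 there were 5 and 9 peaks in Fed, 10 and 13 in Fast, 7 and 10 in Fed with tetracycline, and 13 and 11 in Fast with tetracycline, a difference of 0.57 (SE 0.23; adjusted p 0.457). Here too the Fast lists were above the Fed lists within each state. The share of all genes separating in this way was not counted, and 80.7% of genes had a positive fasting difference in H3K27ac peak number.

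The 2 members for H3K9ac were Atg5 and Atg14. Around Atg5 there were 1 and 3 H3K9ac peaks in Fed, 14 and 5 in Fast, 2 and 6 in Fed with tetracycline, and 9 and 8 in Fast with tetracycline, a difference of 1.40 (SE 0.55; adjusted p 0.517). Around Atg14 there were 1 and 6 in Fed, 10 and 3 in Fast, 3 and 2 in Fed with tetracycline, and 15 and 10 in Fast with tetracycline, a difference of 1.38 (SE 0.57; adjusted p 0.517). The Fed and Fast values of Atg14 overlap without tetracycline, and those of Atg5 do not in either state. For Atg14 the direction turned to -0.43 with equal numbers of top peaks.

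**Figure D5:**
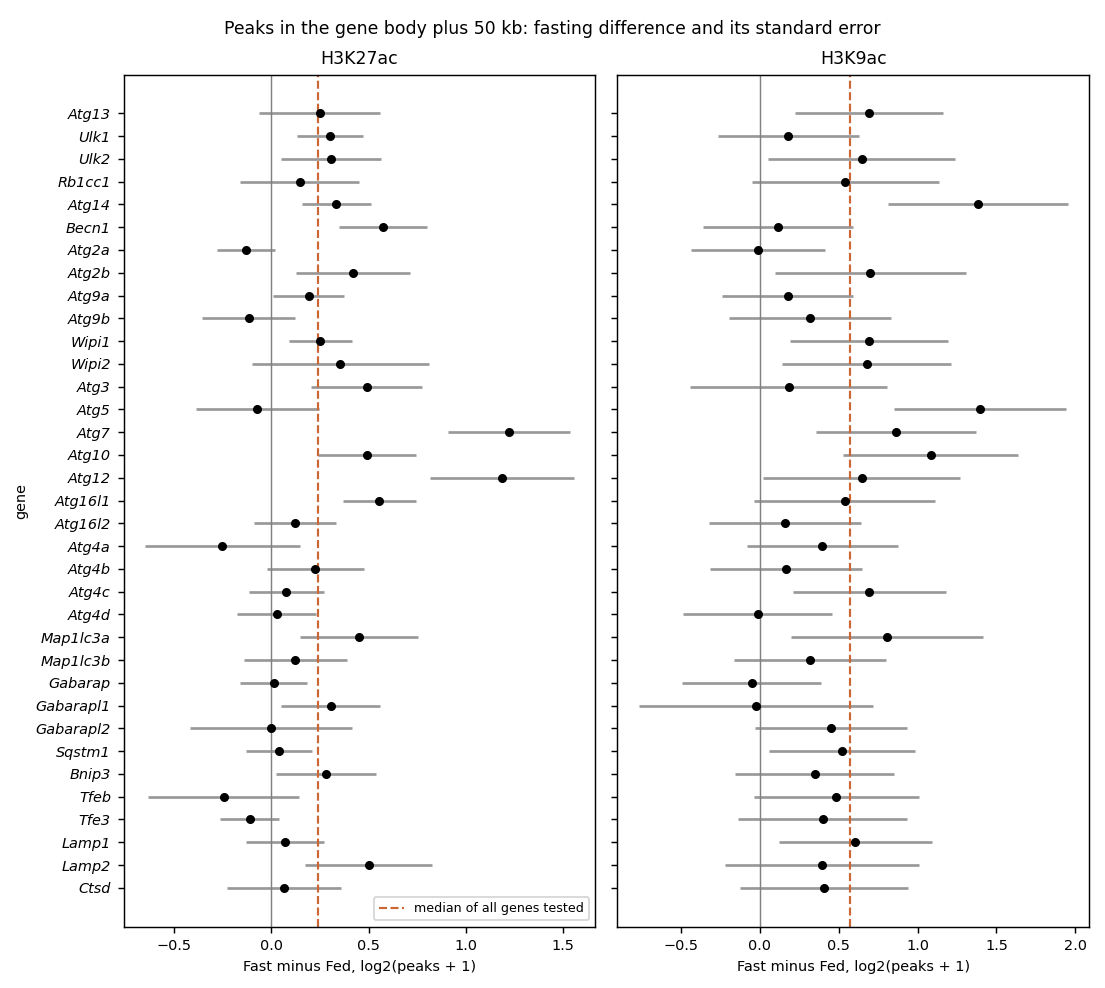
Fasting difference in the number of peaks in the gene body plus 50 kb, log2(peaks + 1), with its standard error from limma over 8 lists, for H3K27ac (left) and H3K9ac (right); the dashed line is the median of all genes tested (0.24 and 0.57). Most members lie around that line, and Atg7 (1.22) and Atg12 (1.19) lie farthest to the right for H3K27ac.

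By tetracycline, members differed in gene-end cover and peak number at unadjusted p-values only. The mean number of marked members for H3K27ac was 30.75 in lists without tetracycline and 31.5 in lists with it, and for H3K9ac 29.25 and 28.5, differences of 0.75 and -0.75 that are smaller than the pooled SD of 1.97 and 1.77. No member was marked in all 4 lists of one tetracycline state and none of the other; the share of genes was 0.00457% with over without and 0.0959% without over with for H3K27ac, and 0.0457% and 0.0411% for H3K9ac. H3K27ac cover was higher in all 4 lists without tetracycline than in all 4 with it at Lamp1 and Atg14 (1.22% of genes tested), and no member had the opposite order (0.507%). Atg14 had 1515 and 1525 bp in Fed, 1448 and 1416 bp in Fast, 762 and 1254 bp in Fed with tetracycline, and 611 and 1372 bp in Fast with tetracycline. Its far end was marked in 6 of these 8 lists. The peak over its start did not separate the states. That peak was 595 bp wide in Fast list 2 without tetracycline, and 611 to 830 bp in the lists with it. For H3K9ac, Gabarap, with 1546 and 2276 bp in Fed, 2080 and 892 bp in Fast, 2382 and 2611 bp in Fed with tetracycline, and 2606 and 2394 bp in Fast with tetracycline, separated the other way (0.886% of genes), and no member was higher without it (0.803%). In peak number no member separated by tetracycline (for with over without, 0.027% of genes in H3K27ac and 0.0948% in H3K9ac; for without over with, 1.03% and 0.0142%).

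No gene passed adjustment for tetracycline in gene-end cover or peak number in limma (0.0%, for both marks). At an unadjusted p below 0.05, 2 members passed for H3K27ac cover (4.32% of genes), namely Lamp1, at -0.21 (SE 0.08; adjusted p 0.975) in log2(bp + 200), and Atg13, at -0.28 (SE 0.11; adjusted p 0.975). The Atg13 values without tetracycline include the far-end peak of Fast list 1 named above. The mean H3K27ac cover of Lamp1 was 1706 bp without and 1445 bp with tetracycline. For H3K9ac cover it was Tfe3, at 1.38 (SE 0.45; adjusted p 0.891), among 4.92% of genes. In H3K27ac peak number, Atg16l1 (-0.56, SE 0.19), Ulk1 (-0.41, SE 0.17) and Ctsd (-0.73, SE 0.29) passed at the unadjusted p (5.15% of genes; adjusted p 0.920 for each). Around Ulk1 there were 6 and 7 peaks in Fed, 10 and 11 in Fast, 6 and 6 in Fed with tetracycline, and 7 and 5 in Fast with tetracycline. Around Ctsd there were 4 and 3 peaks in Fed, 3 and 2 in Fast, 1 and 1 in Fed with tetracycline, and 3 and 1 in Fast with tetracycline. The values with and without tetracycline overlap for both genes. In H3K9ac peak number no member passed at the unadjusted p (0.431% of genes).

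The difference of the fasting effect between the tetracycline states was tested as the interaction, and no gene passed adjustment in either measure (0.0%). At an unadjusted p below 0.05 it was met for H3K9ac cover by Bnip3, given above, and by Tfe3, at 2.40 (SE 0.89; adjusted p 0.932), among 4.76% of genes. Atg5 met it for H3K27ac peak number, with 9 and 6 peaks in Fed, 5 and 2 in Fast, 2 and 4 in Fed with tetracycline, and 5 and 7 in Fast with tetracycline, at 1.82 (SE 0.63; adjusted p 1.0), among 2.17% of genes. Its Fed lists were the higher without tetracycline and its Fast lists with it. No member met it for H3K27ac cover (3.39%) or H3K9ac peak number (0.37%).

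A further list of 85 autophagy and lysosome genes was marked in similar shares. Of these, 64 to 80 (75.3% to 94.1%) were marked in an H3K27ac list and 64 to 78 (75.3% to 91.8%) in an H3K9ac list; 53 and 35 were marked in all 8 lists, against 33.6% and 21.1% of all genes. By group, H3K27ac marked all 8 lists at 10 of 15 genes of the proton pump that acidifies lysosomes, 11 of 20 lysosomal enzyme and cofactor genes, 9 of 12 nutrient sensing genes, 5 of 8 cargo receptor genes, 7 of 11 autophagy partner genes, 5 of 6 fusion genes, 4 of 8 lysosomal membrane genes and 2 of 5 transcription factor genes. For fasting, none of the genes tested passed adjustment in limma in either mark or measure, and 6 of 81 (H3K27ac cover; 6.99% of all genes), 6 of 83 (H3K27ac peak number; 10.3%), 5 of 81 (H3K9ac cover; 6.49%) and 1 of 85 (H3K9ac peak number; 9.55%) passed at an unadjusted p below 0.05. A single gene of this list, Cd63, which encodes a tetraspanin of late endosomes and lysosomes, was marked by H3K9ac in all 4 Fast and no Fed lists (0.0777% of all genes). H3K27ac marked Cd63 in 3 Fed and 2 Fast lists.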

How the data were processed

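Per the labels, CUT&Tag libraries were made from crypt cells with a commercial kit. Per the submitters' processing notes, FastQC, Bowtie and SAMtools were used with the mm10 genome; their roles, versions and settings are not given in the sources used here. Each of the 16 deposited lists gives each peak's position, a MACS peak name and a score whose unit the authors do not state; the smallest score was 50 and the highest per list was 2687 to 3233. The list names say that the data were downsampled, so peak numbers need not follow the original depth, which is unknown. How IgG was used is not given in the sources used here. Scores served only to rank peaks within a list.

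Here, peaks on chromosomes 1 to 19, X and Y were compared with the RefSeq GRCm38.p6 gene table, and starts and promoters came from RefSeq windows of the same build (17492 genes, 79.9%; among the members not for Atg12, Atg16l1, Becn1, Map1lc3a and Rb1cc1). limma 3.58.1 (R 4.3.3), with a mean-variance trend, was fitted to log2(bp + 200) and log2(peaks + 1) over genes with a peak in at least 2 of 8 lists, all 4 groups sharing 1 estimate of the spread, with Benjamini-Hochberg adjustment over all genes tested. Lists of different number were not paired in the fit, and the list number was tried as a block. Counting was checked on simulated peaks, and limma on simulated tables with 100 genes changed by each of 2 fold sizes. The changed genes had a peak in at least 6 of 8 lists, so recovery of less often marked genes was not simulated. The noise was each gene's SD over all 8 lists, which includes differences between groups. For cover the simulated tables kept more genes than the data, 13257 against 11840 for H3K27ac. At log2 differences of 1 and 2, the fit recovered 41 and 72 of 100 for H3K27ac cover (13257 genes), 3 and 30 for H3K27ac peak number (18787 genes), 7 and 38 for H3K9ac cover (16348 genes), and 0 and 0 for H3K9ac peak number (21020 genes). Python 3.11.15, numpy 2.4.6, pandas 2.3.3 and matplotlib 3.10.9 were used. All 35 members are accounted for; list-by-list values are given for members marked in at most 6 of 8 lists of a mark, for members called by a rule on whole lists or passing an unadjusted p, in that mark and measure, and for Ulk1, Becn1, Sqstm1, Map1lc3b, Tfeb, Lamp1, Ctsd and Bnip3. The members and lists were chosen with earlier results of these data known. Alternatives were score, peak-number and width limits, other windows, starts only, pseudocounts, filters, quantile scaling and leaving out lists 1 or 2.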

Additional observations from a re-analysis of the deposited data

Results flagged for a closer look

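H3K9ac at Bnip3 moved in opposite directions with fasting in the 2 tetracycline states: both Fast lists and no Fed list had a peak without tetracycline, and both Fed lists and no Fast list with it. The interaction was -5.03 in log2(bp + 200), and in limma its adjusted p was 0.884, with a range of 0.316 to 0.985 over 7 alternatives.

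The members' median number of H3K9ac peaks per gene body plus 50 kb also moved in opposite directions with fasting by list number. Fast minus Fed was 7 without and 6 with tetracycline between lists 1, and -3 and -1 between lists 2. This difference between list numbers was not tested; total H3K9ac peaks moved the same way, and their part in the result was not tested.

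Single lists stood apart from the other 3 of their feeding state in 3 of 40 groups of 4 lists examined by Dixon's test, and chance flags about 1 in 20. These were Map1lc3b H3K27ac in Fast list 1 without tetracycline (2158 bp), Tfeb H3K9ac in Fed list 1 with tetracycline (1636 bp) and Lamp1 H3K9ac in Fast list 1 without tetracycline (887 bp). The Map1lc3b value includes a peak at the far end, beside an end of Zcchc14, that no other H3K27ac list had. The Tfeb value also includes a peak at the far end, which had H3K9ac in 4 of the 8 lists.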

How the results depend on the processing

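In all 106 alternatives of the 12 limma tests, no member passed an adjusted p of 0.05, and the smallest adjusted p of a member was 0.0665. The list number as a replicate block gave 0 genes and 0 members in all 12 tests. For H3K27ac, keeping the peaks at or above each list's median score turned the difference in marked members to 0.25 for fasting and to -0.25 for tetracycline. Without lists 1 or 2, the H3K27ac differences lay between -2.5 and 0 for fasting and between -0.5 and 2 for tetracycline, and those of H3K9ac for tetracycline between -1 and -0.5. For H3K9ac, the fasting difference was -4.75 above the median score, -8.75 with equal numbers of top peaks, and between -5 and -0.5 without lists 1 or 2. The members' median fasting difference in peak number turned to -0.0583 (H3K27ac) and -0.275 (H3K9ac) with equal numbers of top peaks, and ranged from -0.0611 to 0.424 and from -0.35 to 1.29 without lists 1 or 2. Atg14 turned to -0.434 for H3K9ac peak number with equal numbers of top peaks.

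Genes past the adjusted p, 0 in the fit described, rose for gene-end cover without the filter on low values to 31, 29 and 28 (H3K27ac; fasting, tetracycline and interaction) and 56, 52 and 51 (H3K9ac). For peak number without the filter they were 44, 35 and 35 (H3K27ac) and 45, 25 and 24 (H3K9ac). For H3K27ac fasting in peak number they were 32 above the median score, 20 with equal numbers of top peaks, 28 with peaks at least 500 bp wide, 27 with the body plus 10 kb, and between 0 and 466 without lists 1 or 2. Tetracycline gave 1 gene in H3K27ac cover above the median score, and fasting gave 61 in H3K9ac peak number with quantile scaling. The cause was not tested.

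Genes marked in all lists of one feeding state and none of the other numbered 24 for H3K27ac, 39 with equal numbers of top peaks, and 304 to 556 without lists 1 or 2, where fewer lists have to fit the rule. For H3K9ac they numbered 26, against 42 above the median score, 124 with equal numbers of top peaks, 51 with a window of 2.5 kb, and 782 to 1039 without lists 1 or 2. By tetracycline they numbered 22 for H3K27ac, 12 above the median score, 14 at starts only and 261 to 355 without lists 1 or 2, and for H3K9ac 19, 10 at starts only and 530 to 541 without lists 1 or 2. For H3K9ac, 1 member met the feeding rule above the median score and 1 with equal numbers of top peaks (Atg10 in both), 1 without lists 1 (Atg16l2) and 1 without lists 2 (Gabarapl1); by tetracycline, 1 did without lists 1 (Atg9b) and 1 without lists 2 (Map1lc3a).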

Other observations

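Among the 85 other autophagy and lysosome genes, those marked in the fewest lists were named as values. Rragb, which encodes a GTPase of lysosomal nutrient sensing, and Tfec, a relative of Tfeb, had no peak at a gene end in any list. Pik3c3, the catalytic subunit of the lipid kinase complex, was marked in 1 H3K27ac list and no H3K9ac list, and Cln3, a lysosomal membrane protein gene, in 3 and 1. Ppt1, which encodes a lysosomal thioesterase, was marked in 1 H3K27ac list but in all 8 H3K9ac lists.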
